A study of Homo sapiens with 6 samples.

Results

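The regions described here are 458 stretches of the genome where NRF2 was detected in both libraries of treated HMC3 cells and in exactly 1 of the 2 vehicle libraries. They were taken from 19331 joined regions on chromosomes 1 to 22 and X, of which 7386 lay outside megabases holding more than 20 joined regions. Members were chosen by which libraries list a peak there, so the listing pattern and the tags behind it describe the choice and are given with no test. NRF2 was measured by chromatin immunoprecipitation and sequencing with the antibody D1Z9C. The cells were HMC3, an established human microglial line kept in culture. The treated group (CDDO-Im, 2 libraries) received CDDO-Im, a synthetic triterpenoid, at 30 nM for 4 h. The control group (vehicle, 2 libraries) is known from the sample titles only, because the treatment text is the same for every sample. All groups are the same cell line, and nothing in the labels says whether replicates came from separate cultures. The 2 input samples were not analysed here. Peak lists hold no expression values, so the labelled cell type could not be checked against its markers.

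NRF2 is a transcription factor that the KEAP1 ubiquitin ligase adaptor holds at a low level in resting cells. Electrophiles such as CDDO-Im modify KEAP1, NRF2 builds up in the nucleus, pairs with a small MAF protein and binds antioxidant response elements (ARE). Its best known targets make and use glutathione, reduce quinones, and handle heme and iron. A region listed in 1 vehicle library lies between sites that both vehicle libraries list and sites listed with CDDO-Im alone.

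Promoter sequence could be set beside 5 of the 458 regions, those that overlapped a RefSeq promoter window (GRCh38.p14, 250 bases before to 50 after a gene's start). The letters searched were the ARE core TGACNNNGC on both strands, and TGACTCA and TGAGTCA, the AP-1 site on either strand, which overlaps the ARE core where its next letters are GC. Of these 5 regions 3 held the ARE core (exact 95% interval of the share 14.7% to 94.7%), against 13.3% of all 35116 windows. Among regions with CDDO-Im peaks and no vehicle peak, 10 of 18 over a window held it, and among those of all 4 libraries 5 of 8. These counts are per region, while the 13.3% is per window. A region can overlap more than 1 window, as the GCLM region does with that of LOC124904221, which holds the same match. The sequences below are shown because the summits of the CDDO-Im libraries fell on or beside the match, and EEF1A1 is shown as a member with no match. All are from RefSeq, 5′ to 3′ on the strand of the gene, with the ARE core in capitals. For protein-coding genes only the 250 bases before the start are printed.
GCLM, chr1:93909431-93909680, minus strand: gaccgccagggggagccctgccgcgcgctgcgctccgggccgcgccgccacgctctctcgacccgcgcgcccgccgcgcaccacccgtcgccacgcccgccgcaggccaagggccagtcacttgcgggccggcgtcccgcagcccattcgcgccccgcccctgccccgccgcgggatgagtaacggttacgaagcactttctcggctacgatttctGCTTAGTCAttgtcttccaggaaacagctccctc
LBR, chr1:225428822-225429071, minus strand: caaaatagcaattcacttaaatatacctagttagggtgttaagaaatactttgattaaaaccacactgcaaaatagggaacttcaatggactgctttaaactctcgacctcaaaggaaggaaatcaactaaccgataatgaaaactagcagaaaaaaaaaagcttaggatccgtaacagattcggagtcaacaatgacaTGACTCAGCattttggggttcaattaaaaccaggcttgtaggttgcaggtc
ABCC5-AS1, chr3:184006088-184006387, plus strand: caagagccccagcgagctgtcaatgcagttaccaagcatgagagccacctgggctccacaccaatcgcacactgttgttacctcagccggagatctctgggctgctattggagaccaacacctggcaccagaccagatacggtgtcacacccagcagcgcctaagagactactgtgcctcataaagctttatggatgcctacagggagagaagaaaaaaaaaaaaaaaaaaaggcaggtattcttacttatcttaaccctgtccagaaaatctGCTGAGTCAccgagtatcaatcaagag
EEF1A1, chr6:73521033-73521282, minus strand: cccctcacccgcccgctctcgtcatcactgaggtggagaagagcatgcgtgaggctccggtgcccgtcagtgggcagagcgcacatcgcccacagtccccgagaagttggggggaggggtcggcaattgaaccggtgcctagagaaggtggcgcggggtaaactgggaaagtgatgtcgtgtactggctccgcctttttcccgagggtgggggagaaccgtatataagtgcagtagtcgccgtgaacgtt

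GCLM encodes the modifier subunit of glutamate-cysteine ligase, which makes the first step of glutathione synthesis. Its ARE core was centred 30 bp before the start, 9 bp from the summit of CDDO-Im 1, 16 bp from that of CDDO-Im 2 and 38 bp from that of vehicle 2. LBR encodes the lamin B receptor, a protein of the inner nuclear membrane. Its match was centred 47 bp before the start and lay 11 and 10 bp from the CDDO-Im summits and 33 bp from that of vehicle 1. ABCC5-AS1 is a noncoding gene inside ABCC5, which encodes an ATP-driven exporter. Its match, centred 27 bp after the start, lay 2 and 9 bp from the CDDO-Im summits and 11 bp from that of vehicle 2. The matches of LBR and ABCC5-AS1 also contained an AP-1 site, while GCLM had none. Of all windows 4.95% held an AP-1 site anywhere, and 1.12% held both an AP-1 site and an ARE core, overlapping or not. The region over the LINC02998 window had its 3 summits 281 to 308 bp before the start, outside the window, and no match was found there. At EEF1A1, the gene of a translation elongation factor, no match was found and the 3 summits lay 57, 162 and 23 bp before the start for vehicle 1, CDDO-Im 1 and CDDO-Im 2.

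**Figure D1:**
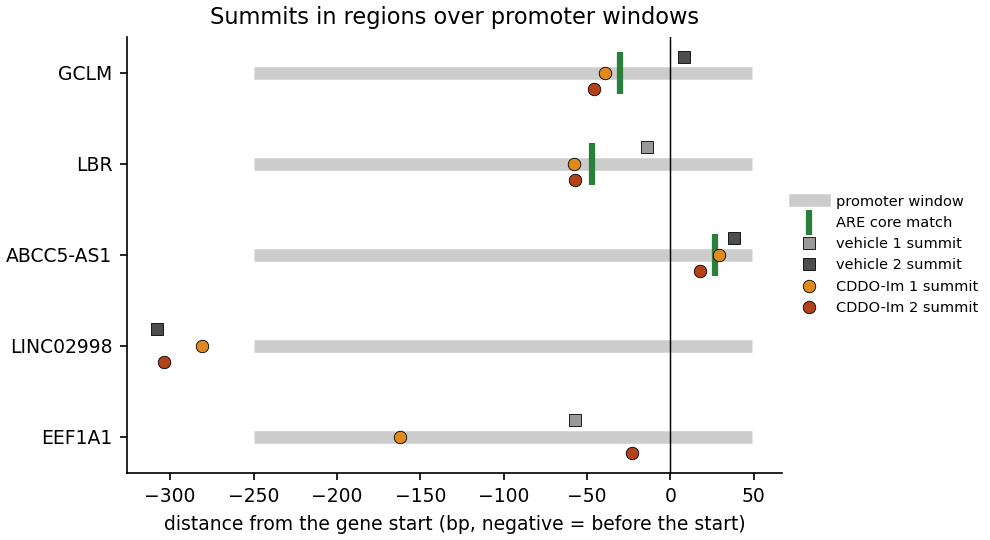
Position of each library's summit (x axis, bp from the gene start) for the 5 regions over a promoter window, with the ARE core match as a green bar and the 300-base window in grey. The CDDO-Im summits of GCLM, LBR and ABCC5-AS1 lie 2 to 16 bp from the match, while the 3 EEF1A1 summits are spread over 139 bp.

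Outside dense megabases vehicle 1 listed 1216 peaks and vehicle 2 listed 1276, while the treated libraries listed 3249 and 4795. On the log2 scale the group means differed by 1.66, with an exact two-sided permutation p of 0.333, the smallest that 2 libraries against 2 allow. Over all peaks, dense megabases included, the difference was 0.33 with an exact permutation p of 1. Library totals were not used here, and the lowest background of each library, 0.315 to 0.367 tags, stands in for depth. Members made up 11.7% of the regions that vehicle 1 listed there and 24.9% of those that vehicle 2 listed. For the treated libraries the shares were 14.1% (CDDO-Im 1) and 9.56% (CDDO-Im 2). Each library that listed a member listed 1 peak in it. The regions were short, with a median width of 371 bp and a range of 227 to 586 bp.

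At the summit, members held a median of 18 tags in CDDO-Im 1 (range 6 to 67) and 27.5 in CDDO-Im 2 (6 to 102), against 8 in the vehicle library that listed them (4 to 60). A tag is a sequenced fragment at the summit, recovered from the authors' fold enrichment and p. Regions with CDDO-Im peaks and no vehicle peak had medians of 11 and 16 tags. Regions of all 4 libraries had 35 and 54.5 with CDDO-Im and 11 and 13 under vehicle. Members thus lay between the other classes in both CDDO-Im libraries. By −log10 q, 61.4% of their peaks were in the upper quartile of the CDDO-Im 1 list and 76.2% in that of the CDDO-Im 2 list. Those lists also hold peaks that no other library lists, while members were chosen for peaks in several. The rank therefore describes the choice, and it was not computed for the other classes. In the vehicle lists 32.5% of the members' peaks were in the upper quartile, 45.1% of 142 for vehicle 1 and 26.9% of 316 for vehicle 2.

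**Figure D2:**
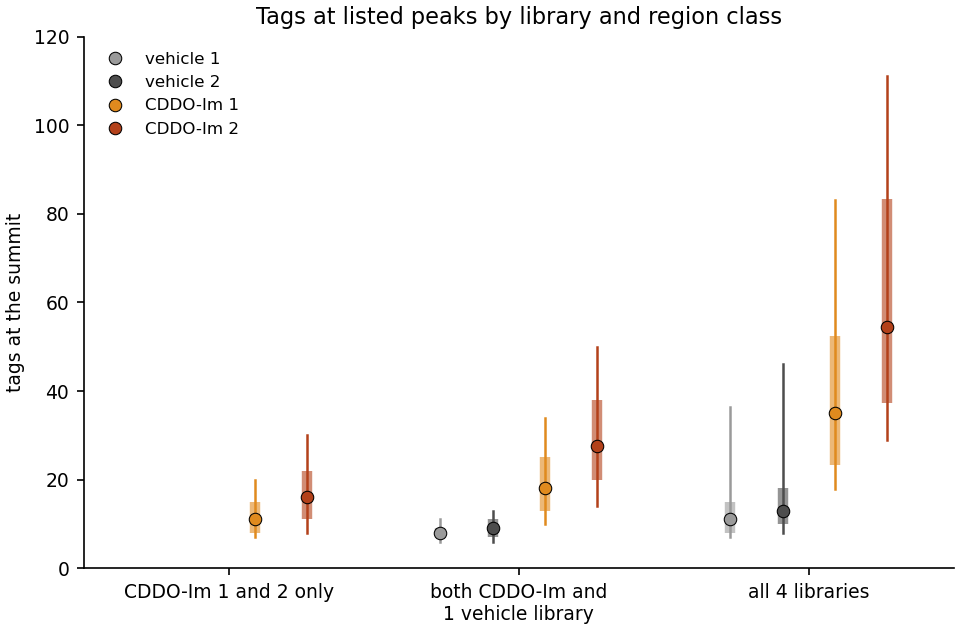
Tags at the summit (y axis) in each library for regions listed by both CDDO-Im libraries alone, by both CDDO-Im and 1 vehicle library, and by all 4, outside dense megabases. Points are medians, thick bars quartiles and thin lines the 10th to 90th percentile over regions, and each library is drawn only where it lists a peak. Medians of members are 18 and 27.5 tags with CDDO-Im and 8 and 9 in vehicle 1 and 2.

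Divided by each library's genome-wide background, the CDDO-Im tags were 54.3 and 74.8 in the median and the vehicle tags 25.4. The ratio of the CDDO-Im mean to the vehicle value had a median of 2.44 and quartiles of 1.80 and 3.12. Taken with 1 CDDO-Im library at a time the median ratio was 1.90 for CDDO-Im 1 and 2.70 for CDDO-Im 2. The CDDO-Im libraries also differed from each other, with CDDO-Im 2 above CDDO-Im 1 in 363 members and a median ratio between them of 1.36. In 424 of 458 members (92.6%) both CDDO-Im libraries lay above the vehicle library, against 65.2% of all 993 regions of both CDDO-Im and at least 1 vehicle library. Those 993 include the members and the regions of dense megabases. Outside dense megabases the regions of all 4 libraries had 200 of 230 (87.0%). A region counted only if both CDDO-Im libraries lay above every vehicle library that lists it. Regions of all 4 libraries thus had to exceed both vehicle values and members only 1, so these shares rest on unlike criteria. The ratio was at least 2 in 298 members and at least 4 in 42. In 33 members 1 CDDO-Im library lay at or below the vehicle value, and in 1 both did. Since a member has a value in 1 vehicle library only, no spread within vehicle stands behind these ratios. They use the vehicle library that passed the listing threshold and leave out the one with no listed peak. With the latter set just below the tags needed for listing (given below) and both vehicle values averaged, the median ratio would be 3.415.

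**Figure D3:**
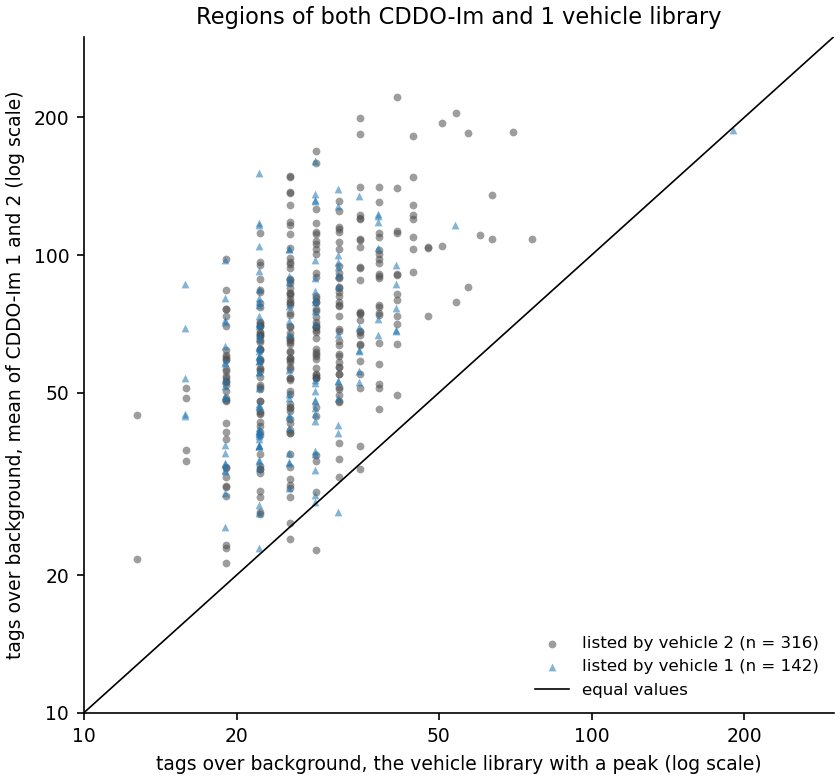
Mean tags over background of the CDDO-Im libraries (y axis, log scale) against those of the vehicle library that lists the region (x axis, log scale), 1 point per member. Triangles are the 142 members listed by vehicle 1 and circles the 316 listed by vehicle 2, and the line marks equal values, below which 5 members lie.

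Vehicle 2 listed 316 of the members (69.0%) and vehicle 1 the other 142, from lists of 1276 and 1216 peaks outside dense megabases. Members of vehicle 1 had a median of 8 vehicle tags and 17 and 24 CDDO-Im tags, with a median ratio of 2.26. Members of vehicle 2 had 9 vehicle tags and 19 and 28 CDDO-Im tags, with a median ratio of 2.46. The quartiles of the ratio, 1.72 to 3.12 and 1.88 to 3.11, overlapped over most of their range. At the local background of the listing library, scaled to the other one, the vehicle library without a peak would have needed a median of 4 tags for a p as low as its weakest listed peak; the tags it held are not in the lists. The vehicle peak nearest to the listing limit was 39183 bp outside CYP19A1, the aromatase gene, with 5 tags in vehicle 1 at a −log10 q of 1.43. The lowest −log10 q in that list was 1.31.

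The distance between library summits within a region was no criterion of the rule, but peaks are joined only where they overlap and members were a median of 371 bp wide, which limits it. The distances are therefore a description. The distance between the CDDO-Im summits had a median of 15.5 bp and quartiles of 7 and 26.8 bp, and it was at most 50 bp in 421 members (91.9%). The vehicle summit lay a median of 23 bp from that of CDDO-Im 1 and 22.5 bp from that of CDDO-Im 2. In 336 members it was within 50 bp of both, and in 115 all 3 summits fell within 20 bp of each other. The median between the CDDO-Im summits was 21 bp in regions with no vehicle peak and 11 bp in regions of all 4 libraries. The classes also differ in tags, as given above, and the part of that in this order was not tested.

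**Figure D4:**
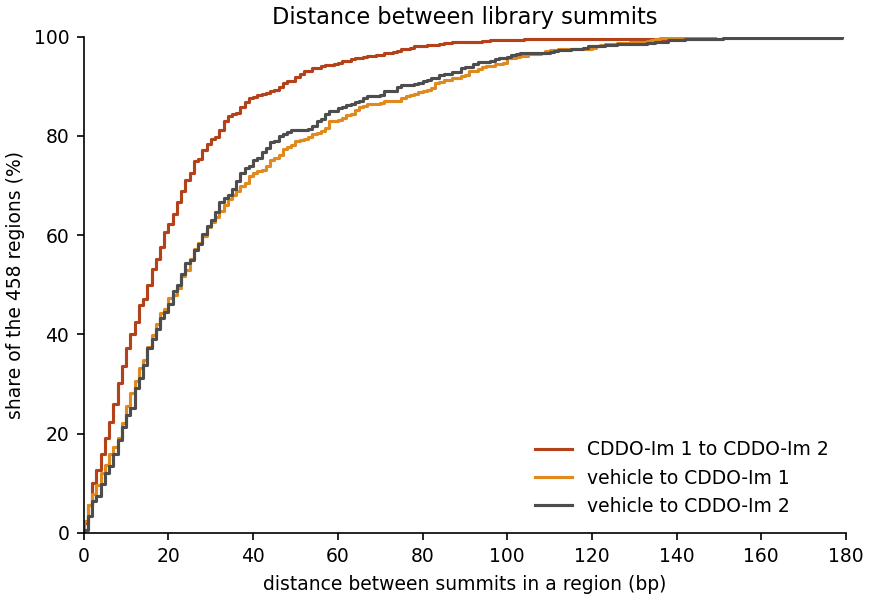
Cumulative share of the 458 members (y axis, percent) by the distance between summits of 2 libraries (x axis, bp). The curve for the CDDO-Im pair rises first, with a median of 15.5 bp, and the curves from vehicle to CDDO-Im 1 and 2 have medians of 23 and 22.5 bp.

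Across members the CDDO-Im libraries ranked the regions alike, with Spearman's rho of 0.71 and Pearson's r of 0.72 on log2 tags over background (n = 458). Vehicle and CDDO-Im tags had a rho of 0.49, or 0.35 in members of vehicle 1 (n = 142) and 0.52 in those of vehicle 2 (n = 316). Width and CDDO-Im tags had a rho of 0.66. These are descriptions over regions that share libraries, and all were kept above a listing threshold in each.

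Most members lay away from gene ends. The summit was inside a protein-coding gene in 206 (45.0%, exact 95% interval 40.4% to 49.7%), against 44.4% of all regions outside dense megabases. Outside genes, 45 members lay within 10 kb of an end, 106 between 10 and 100 kb, and 101 farther away. Of the 252 outside protein-coding genes, 61 were inside a lncRNA gene and 186 in no annotated gene. Within 10 kb of an end, inside the gene or out, were 96 members (21.0%, 17.3% to 25.0%). The share was 16.5% (14.6% to 18.6%) in regions with no vehicle peak, 28.7% (22.9% to 35.0%) in regions of all 4 libraries and 18.1% in all regions outside dense megabases. These intervals cover counting error only, and the differences between classes were not tested. The ratio differed little with position: its median was 2.52 inside genes, 2.06 outside within 10 kb, 2.47 at 10 to 100 kb and 2.44 beyond, with quartiles that overlapped.

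The 84 genes of 6 pathway lists are called NRF2 target genes here, although not each is an established target. Of these, 5 had a member inside or within 10 kb of an end (5.95%, exact 95% interval 1.96% to 13.3%). The share of all 19974 protein-coding genes was 1.36%. The 5 genes are named next. They were GCLC, GCLM and GPX4 of 18 glutathione genes and ABCB6 and SLC48A1 of 13 heme and iron genes. The thioredoxin, detoxification, NADPH and pentose phosphate, and autophagy and proteasome lists had 0 of 12, 20, 10 and 11. Regions with no vehicle peak reached 9 of the 84 genes (10.7%, against 3.9% of all protein-coding genes), among them TXNRD1, FTL, FECH and ME1. Regions of all 4 libraries reached 7 (8.33%, against 0.796%), among them HMOX1, NQO1, FTH1 and SQSTM1. SLC48A1 alone stood under both members and regions of all 4 libraries. Without vehicle 1, where regions of all 4 libraries join the class, 10 target genes had a member, and without vehicle 2 they were 8.

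Both subunits of glutamate-cysteine ligase were in the class, and both through vehicle 2. At GCLM (chr1:93909268-93909669) vehicle 2 held 11 tags, with a Poisson interval of 5.49 to 19.7, CDDO-Im 1 held 20 and CDDO-Im 2 held 28. Over background the CDDO-Im mean was 1.95 times the vehicle 2 value. The GCLC region (chr6:53548076-53548402) lay 3140 bp before the start of the gene, which encodes the catalytic subunit. It held 9 tags in vehicle 2 against 20 and 18 with CDDO-Im, a ratio of 1.91, and here CDDO-Im 1 was the higher library. In both regions the 2 CDDO-Im values lay above the vehicle value. GPX4, the glutathione peroxidase that reduces lipid peroxides, had a region 4371 bp outside the gene (chr19:1099463-1099818). It was 4248 bp before the start of POLR2E, an RNA polymerase subunit, and so closer to that gene. It held 8 tags in vehicle 2, 22 in CDDO-Im 1 and 27 in CDDO-Im 2, a ratio of 2.75.

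The heme genes were a mitochondrial porphyrin transporter and a heme transporter. The region inside ABCB6 (chr2:219217790-219218161), 1011 bp after its start, held 8 tags in vehicle 1 against 14 (CDDO-Im 1) and 34 (CDDO-Im 2). The ratio was 2.66, and the CDDO-Im libraries differed more from each other than CDDO-Im 1 did from vehicle 1. SLC48A1, which moves heme out of endosomes and lysosomes, had a member inside the gene (chr12:47776684-47777118) with 8 tags in vehicle 2 and 11 and 22 with CDDO-Im. Its summit lay 1211 bp from that of a region of all 4 libraries in the same gene (chr12:47775469-47775867). That neighbour held 11 and 10 tags in the vehicle libraries and 22 and 44 with CDDO-Im, so the member was the weaker site in each library that listed both.

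Of the other lists, the neuron markers had 1 of 11 genes and the highly transcribed genes 1 of 13. MAP2, a microtubule-associated protein of neurons, held 2 members inside the gene. One (chr2:209472569-209472947) had 9 tags in vehicle 2 and 30 and 34 with CDDO-Im, and the other (chr2:209609580-209609899) 6 in vehicle 1 and 9 and 15. The EEF1A1 region at the promoter shown above held 7 tags in vehicle 1 and 8 in each CDDO-Im library. No member lay at any of the 15 NRF2 pathway regulators, 12 AP-1 genes or 15 inflammatory genes. The same held for 12 microglia markers, 10 mesenchymal and pericyte markers and 10 glial markers of astrocytes and oligodendrocytes. With 1.36% of all genes at a member, lists of this size can hold 0 or 1 at the background share, and a count of 0 allowed a share of up to 21.8% to 30.8% by list (exact 95% upper limit). A gene of these lists can still have regions of another class.

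The 12 strongest members were ranked by the authors' fold enrichment, taking the lower of the treated libraries, and 6 of them lay inside a gene. The first was inside TPD52L1, a tumour protein D52 family member (chr6:125202032-125202581), with 22 tags in vehicle 2 against 58 and 72 with CDDO-Im. EGLN3 encodes an oxygen-sensing prolyl hydroxylase that marks hypoxia-inducible factor for removal. Its region lay 577 bp before the start (chr14:33951435-33951856) and held 9 tags in vehicle 2 against 47 and 65. Inside PLCB1, a phospholipase C that signals below G protein-coupled receptors (chr20:8874417-8874880), 13 vehicle 2 tags stood against 55 and 102. PLAT encodes tissue plasminogen activator. A region 3418 bp outside it (chr8:42210717-42211300) had 8 tags in vehicle 2 and 43 and 61 with CDDO-Im. Regions inside TMEM245 (9 vehicle 1 tags, then 47 and 66), ACTN4 (8 vehicle 2 tags, then 42 and 48) and NRP2 (11 vehicle 2 tags, then 44 and 55) followed. ACTN4 is an actin crosslinker and NRP2 a receptor for semaphorins and vascular growth factors. The region inside MASP1, a protease of the lectin complement pathway, had 20 vehicle 2 tags against 49 and 45. The remaining 4 lay outside genes, nearest to NTMT1 at 38028 bp, RPS24 at 67590 bp, HINT1 at 321567 bp and PCDH7 at 2347513 bp. In all 12 both CDDO-Im libraries were above the vehicle library, with ratios of 2.13 at MASP1 to 5.81 at PLAT.

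**Figure D5:**
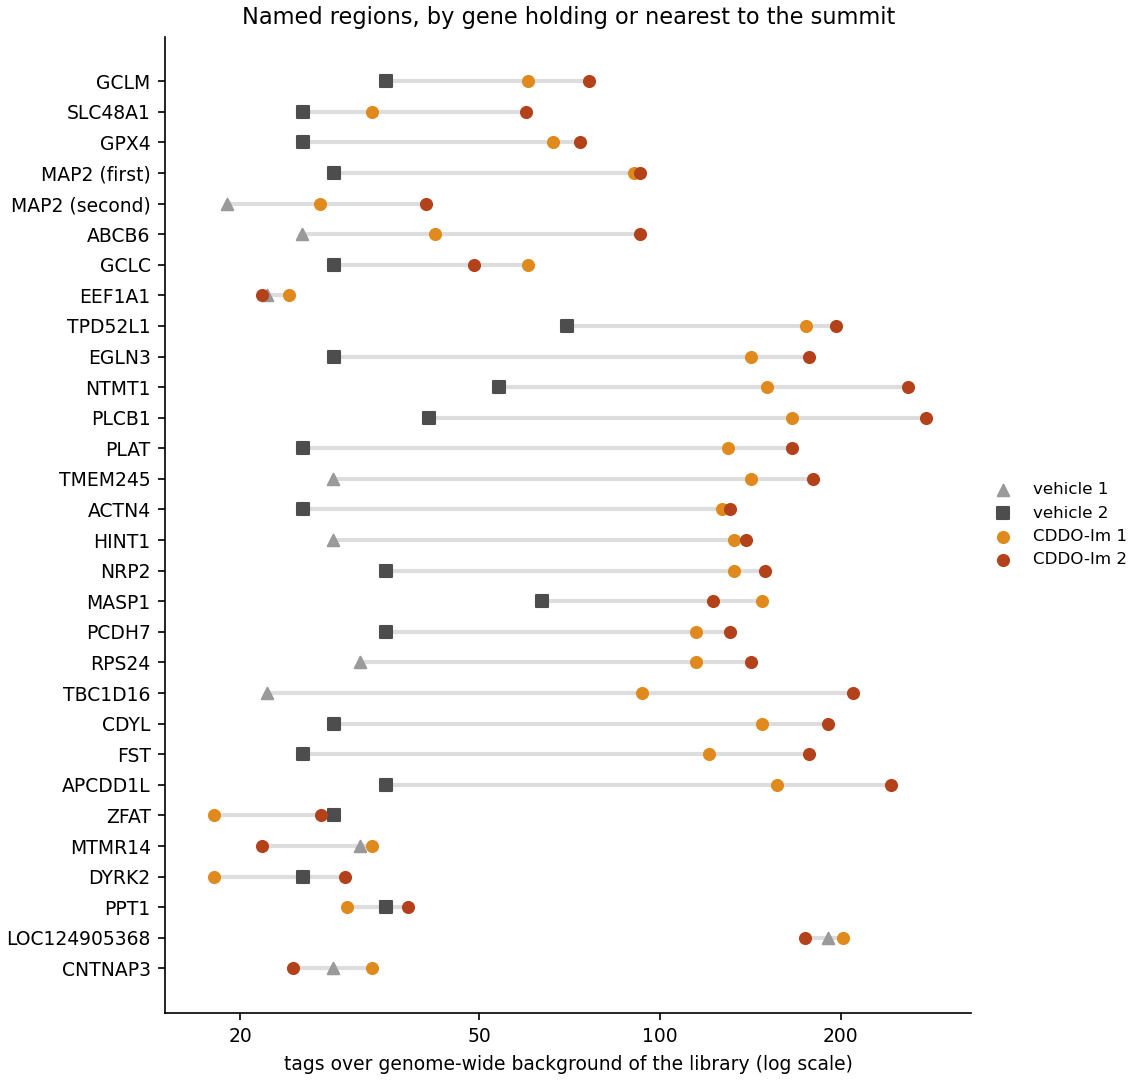
Tags over the genome-wide background of each library (x axis, log scale) for list genes, the 12 strongest members and those with the highest and lowest ratios, 1 row per region. Squares and triangles are the vehicle library that lists the region and circles the CDDO-Im libraries, and the row GPX4 is the region between that gene and POLR2E. Vehicle values lie left of both circles except at EEF1A1 and the last 6 rows.

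Within 1000 bp of a gene end lay 12 members (2.62%), close to the 2.34% of all regions outside dense megabases. The share was 2.66% in regions with no vehicle peak and 3.91% in regions of all 4 libraries. The regions at GCLM, LBR, EGLN3 and EEF1A1 were at the start of the gene by the RefSeq table. LBR (chr1:225428627-225429053) held 12 tags in vehicle 1 and 27 and 57 with CDDO-Im, a ratio of 3.11. Those at MATN3, OSGEP and PIK3C2B lay 20554, 7730 and 71836 bp after the start, at the far end of the gene. MATN3, a cartilage matrix protein, had 10 tags in vehicle 2 and 17 and 24 with CDDO-Im. OSGEP, an enzyme of tRNA modification, had 8 in vehicle 2 and 16 and 40. PIK3C2B, a lipid kinase, had 10 in vehicle 2 and 13 and 23. Those at TEX19, LRP1B, KLHL32 and LOC107983983 had 6 to 13 vehicle tags, 11 to 25 tags in CDDO-Im 1 and 17 to 31 in CDDO-Im 2. In 11 of the 12 both CDDO-Im libraries were above the vehicle library, the exception being EEF1A1.

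The highest ratio, 6.83, was inside TBC1D16, a Rab GTPase-activating protein, 1659 bp from an end (chr17:79933783-79934225). Vehicle 1 held 7 tags there, CDDO-Im 1 held 31 and CDDO-Im 2 held 77. CDYL, a chromodomain protein that acts as a corepressor, followed with 9 tags in vehicle 2 and 49 and 70. FST, the gene of the activin inhibitor follistatin, had a region 50753 bp before its start with 8 tags in vehicle 2 and 40 and 65. PLAT, APCDD1L (11, then 52 and 89) and TMEM245 completed the 6 highest, with ratios of 5.81, 5.71 and 5.63.

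At the other end, 17 members had a ratio under 1.2 and 5 under 1. The lowest, 0.792, was inside ZFAT, a zinc finger gene (chr8:134551453-134551679), with 9 tags in vehicle 2 and 6 and 10 with CDDO-Im. It was the only member where both CDDO-Im libraries lay below the vehicle library over background, although CDDO-Im 2 had the higher tag number. The region nearest to MTMR14 had 10 tags in vehicle 1 and 11 and 8 with CDDO-Im, a ratio of 0.867. The ratios of a region nearest to DYRK2 (chr12:67621193-67621501, 0.944), PPT1 (0.976) and the region nearest to LOC124905368 (0.989) turned above 1 without division by background. That of CNTNAP3 (1.01) turned to 0.974, and that of EEF1A1 (1.03) to 0.989, with background taken over the shortest peak width. These regions held 6 to 14 tags with CDDO-Im, apart from the one near LOC124905368 (chr2:89830828-89831161). It held 60 tags in vehicle 1 and 67 and 64 with CDDO-Im, at a local background of 26.1 and 32.8 tags in CDDO-Im 1 and 2. It was the only member with a local background above 2 tags in CDDO-Im 2. Its authors' fold enrichment in the CDDO-Im libraries was as low as 1.93. A region of all 4 libraries lay 2308 bp away, with 59, 71, 66 and 71 tags in vehicle 1, vehicle 2, CDDO-Im 1 and CDDO-Im 2. The low ratio near DYRK2 was that of 1 region only. Another member nearest to DYRK2 (chr12:67594907-67595298), 26203 bp from it, held 11 tags in vehicle 2 and 29 and 47 with CDDO-Im, a ratio of 3.08.

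Of the 458 members, 2 had another member within 10 kb, 2 a region of all 4 libraries and 12 a region with no vehicle peak. The same was not counted for other classes, so these numbers do not show whether members are spaced unusually. The 2 adjacent members were 2594 bp apart, more than 50 kb from SETD7, a lysine methyltransferase gene. They held 6 and 10 tags in vehicle 2, 16 and 17 in CDDO-Im 1, and 21 and 19 in the other treated library. The nearest region with no vehicle peak was in TBXAS1, the gene of thromboxane synthase, and TBXAS1 and SETD7 are named after their values were seen. There the member (chr7:139915987-139916380) held 12 tags in vehicle 2 and 40 and 59 with CDDO-Im. Its neighbour, 1740 bp away, held 35 and 72 with CDDO-Im and no listed vehicle peak. Of the 271 genes with a member inside or within 10 kb, 6 had 2 each, namely MAP2, ATXN1, CNTNAP2, FAM120A, PCDH15 and RNF157.

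The limit on dense megabases did not touch the class closely. Members lay in megabases with at most 10 joined regions, and the next region of the same listing pattern was in a megabase with 34. At the inner side, a region in ATXN1 (chr6:16623012-16623453) held 12 tags in vehicle 1 and 21 and 30 with CDDO-Im. At the outer side, a region on chromosome 18 (chr18:20168487-20168793) held 8 tags in vehicle 2 and 8 in each CDDO-Im library. The 102 regions of the same listing pattern that the rule dropped had a median ratio of 0.909, with both CDDO-Im libraries above the vehicle library in 16 and below it in 44. Their CDDO-Im summits lay a median of 54 bp apart.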

How the data were processed

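NRF2 ChIP-seq peak lists of 2 vehicle and 2 CDDO-Im libraries were used. The submitters' processing notes name MACS2 2.2.7.1, BWA 0.7.17 and bcl2fastq 2.15.0, and the builds GRCm38 and hg38. Coordinates are taken as hg38, since the cells are human. The choice of control sample, threshold and duplicate filter was not given in the sources used here. The deposited lists, made per library by their peak names, give the authors' fold enrichment (a ratio) and −log10 p and −log10 q per peak, and each summit's position.

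Tags and local background at each summit were recovered from fold and p, with fold read as (tags + 1)/(background + 1) and p as a Poisson upper tail. A whole number of tags fitted 100% of peaks (tolerance 0.001 plus 0.0002 of the value), with a single match for 97.7% to 99.4% per library. A library's lowest background was its genome-wide background. Peaks overlapping by at least 1 bp were joined, and a region's summit was that of its peak with the highest −log10 q. Regions in megabases with more than 20 were dropped.

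Genes were the 19974 protein-coding genes of RefSeq (GRCh38.p14). Starts came from its promoter table, which held 15813 of them, and are given only for named genes. Of 183 listed genes 182 matched. Named regions are the 12 strongest by the lower CDDO-Im fold, those near list genes, those within 1000 bp of a gene end, the 6 lowest and 6 highest ratios and those at the dense limit. SETD7, TBXAS1, CYP19A1 and the genes with 2 members were named after their values were seen. One region that this rule names is not reported here. ABCC5-AS1 and LINC02998 are named for their promoter windows. The members and lists were chosen with earlier results of these data known. Recovery and joining were tested on simulated data. Intervals are exact, at 95%, and cover counting error only. Python 3.11.15, scipy 1.17.1 and pandas 2.3.3 were used.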

Additional observations from a re-analysis of the deposited data

Results flagged for a closer look

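The regions above leave out peaks on any sequence that is not an autosome or X. CDDO-Im 1 listed 142 such peaks and CDDO-Im 2 listed 189. Both numbers were above those of the vehicle libraries, 129 and 140. The whole lists held 4024 and 12433 peaks for CDDO-Im 1 and 2, and 4227 and 7448 for vehicle 1 and 2. As a share of its list, CDDO-Im 1 was thus the highest library and CDDO-Im 2 the lowest.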

How the results depend on the processing

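With dense megabases kept the class held 560 regions. Both CDDO-Im libraries then lay above vehicle in 78.6%, 37.0% were inside a gene and 17.1% within 10 kb of a gene end. At a −log10 q of at least 5 the class held 301 regions, 75.7% of them listed by vehicle 2. With background over the shortest peak width, both CDDO-Im libraries were above vehicle in 95.2%. Leaving out each library gave 89.2% to 96.3% for this share, 372 to 546 regions, and 5 to 10 target genes with a member. Without a CDDO-Im library the share counts only the remaining one, and no peak in the other was required. It was then 96.3% without CDDO-Im 1 and 93.3% without CDDO-Im 2. Members within 1 kb of a gene end were 2.62% and within 50 kb 53.1%, and 3 target genes had a member inside or within 1 kb. The ratio crossed 1 without division by background at the low-ratio region near DYRK2 (1.06), PPT1 (1.09) and LOC124905368 (1.09). With background over the shortest peak width it did so at DYRK2 (1.05), PPT1 (1.10), CNTNAP3 (0.974) and EEF1A1 (0.989). Among these, the regions near DYRK2, CNTNAP3 and EEF1A1 and in PPT1 rest on few tags, and the cause was not tested. Of the 90 values of main results under alternatives, 77 stayed within the limits set for them. Counts had to stay within 1.5 times and shares inside their exact 95% interval. Medians had to stay within their standard deviation over libraries or library pairs, and the peak-number difference only had to keep its sign. The fall to 0.33 (log2) over all peaks is therefore among the 77, as is the motif count, which was set as kept. So are median ratios of 1.9 without CDDO-Im 2, 2.12 with dense megabases kept and 3.0 without vehicle 2, against 2.44 as reported. Their limit was 0.563, the standard deviation over the CDDO-Im libraries. The class of 318 regions from the same number of top peaks per library is also among the 77. A dense limit of 10 regions and an overlap of 100 bp left every value of the class as it was. Pairing the libraries by replicate number left the difference in peak number at 1.66 (log2), with an exact sign-change p of 0.5, the smallest 2 pairs allow. The numbers share no stated batch. The other limit is the low number of tags, a median of 8 in the vehicle library that listed a member. Library totals were not used, so depth itself was not measured. Leaving out a CDDO-Im library gives no distance between CDDO-Im summits, and leaving out a vehicle library no share by vehicle library.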
